A study of Mnemiopsis leidyi with 40 samples.

Results

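A set of 48 gene models of the ctenophore (comb jelly) Mnemiopsis leidyi, out of 16548 in the count table, was abundant at 0-1 h. Its genes were still near that level at 4-5 h and at a small share of it from 11 h on. The genes were chosen by their levels alone. Embryos were joined into 8 blocks of time (0-1, 2-3, 4-5, 5.5-6.5, 7-7.5, 8-9, 11-13 and 20 h), and each gene's level in a block was its summed counts over the summed gene counts, given as CPM (reads of the gene per 1e6 gene reads). A member had at least 50 CPM at 0-1 h. Its 2-3 h level was below 2 times the 0-1 h level, and its 4-5 h level lay between 2/3 and 2 times that level. Its highest block was 0-1, 2-3 or 4-5 h, and its 11-13 h and 20 h levels were each at most 1/6 of the 0-1 h level. Embryos of 10 h took no part in the choice. The level kept at 4-5 h and the late loss are therefore what the choice fixed, while no lower limit was set at 2-3 h. Both are given below as a description, with no test.

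A newly laid animal egg is stocked with messenger RNA made by the mother during oogenesis, and this RNA directs the first cleavages. During the maternal-to-zygotic transition the embryo's own genome becomes active and maternal transcripts are destroyed, some early and some late. Different messages can be cleared by machinery supplied by the mother or by products of the embryo's own genes. Here the word maternal can mean only that the RNA was present at 0-1 h: the series holds no measurement that separates RNA loaded into the egg from RNA made by the embryo. The deposited IDs matched none of the 19625 genes of a RefSeq table of the species (assembly crg_Mlei_v2), so the genes are named by ID, no function is given, and no sequence is shown.

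The study followed development in 40 single embryos, 2 at each of 20 times from 0 to 20 h, with RNA amplified and sequenced by CEL-Seq, which barcodes each sample and reads the 3' ends of transcripts. No treatment, strain or genotype is named in the labels, so developmental time is the only condition. The authors' sample sheet gives the libraries 2 Illumina index numbers, 6 and 12, with 1 embryo of each time under each. They are called pool 6 (replicate 1) and pool 12 (replicate 2). The labels do not say whether embryos of one age share a spawning. The p-values below rest on the spread between single embryos alone.

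Depth set how far low levels could be read. In 36 embryos the reads in gene models ranged from 977034 to 4511124, with a median of 1889388.5. The other 4 were 4 h replicate 1 with 580587 reads, 8.5 h replicate 2 with 343202, 5.5 h replicate 2 with 264033 and 10 h replicate 1 with 3808. In the last of these, 3 reads amount to 787.8 CPM, and it was left out of every test. A CPM is a share of an embryo's gene reads: fewer molecules of a transcript and more of all other transcripts cannot be told apart in whole embryos.

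Requirement by requirement, few abundant early genes met the late limits. At 0-1 h 2748 gene models had at least 50 CPM. Of these, 2699 met the 2-3 h limit, 2207 also met the 4-5 h limits, and 1560 also had their highest block by 4-5 h. The 11-13 h limit left 76 of the 1560, and the 20 h limit left the 48. Just inside the late limit lay ML07764a, whose higher late level was 16.4% of its 0-1 h level of 351 CPM, and ML073417a, at 16.5% of 1049 CPM. Just outside lay ML007322a, at 16.7% of 171 CPM, and ML039721a, at 16.8% of 124 CPM. The edge of the set is thus a line drawn between neighbouring values, with no gap at it.

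Summed over the 48 genes, the transcripts made up 13655 ± 661 CPM at 0-1 h (SD, n = 4 embryos), or 1.36% of gene reads. The 4 embryos of 0-1 h ranged from 13020 to 14449 CPM, and the 4 of 2-3 h from 11736 to 13495 CPM, with a mean of 12699 ± 902. At 4-5 h the lowest, median and highest of 6 embryos were 7848, 12780 and 13137 CPM. Every embryo to 4.5 h thus had at least 11736 CPM. Both embryos of 3 h, both of 4.5 h and 4 h replicate 1 lay below the lowest of 0-1 h, at 11736 to 12921 CPM. Of the 2 embryos of 5 h, replicate 2 stood well below the rest.

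From 5.5 h on the sum came down in each block. At 5.5-6.5 h the 6 embryos had a lowest, median and highest sum of 6550, 8276 and 8704 CPM. The 4 embryos of 7-7.5 h had 6453, 4491, 4479 and 4146 CPM. At 8-9 h the lowest, median and highest of 6 were 2311, 3576 and 4123 CPM. No embryo of 7-7.5 h reached the lowest of 5.5-6.5 h, and no embryo of 8-9 h reached the lowest of 7-7.5 h. At 11-13 h the 6 embryos lay at 1190, 1305 and 1615 CPM by the same measures, and the embryos of 20 h had 1043 and 1099 CPM, or 0.107% of gene reads. The last sampled time at which the sum was at or above 50% of its 0-1 h level was 6 h in each pool.

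**Figure D1:**
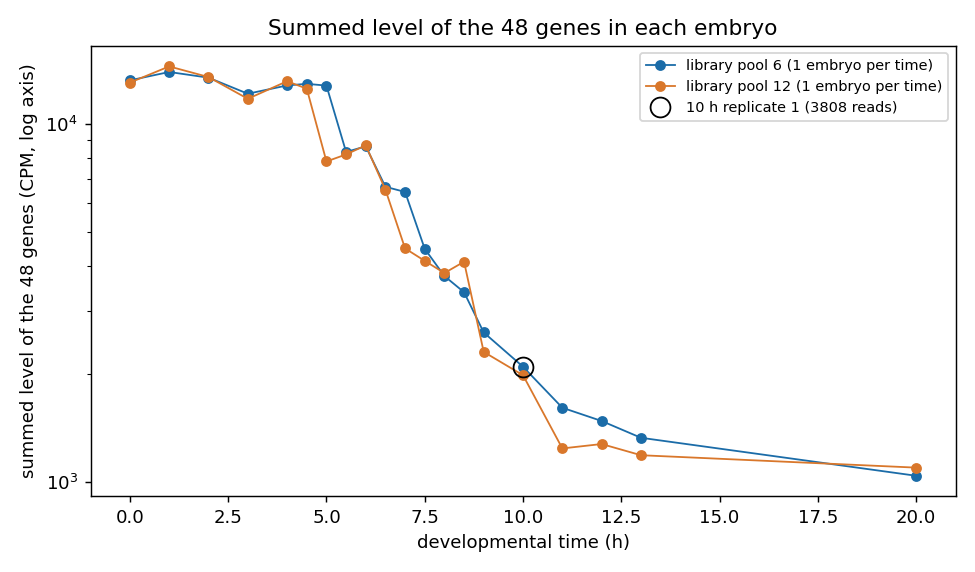
Summed level of the 48 genes in each embryo (CPM, log axis) against developmental time (h), with 1 line per library pool and 10 h replicate 1, which had 3808 reads, circled. The sum lay between 11736 and 14449 CPM to 4.5 h and reached 1043 and 1099 CPM at 20 h, with 5 h replicate 2 (7848 CPM) below and 7 h replicate 1 (6453 CPM) above embryos of similar age.

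The median member stood at 82.9% of its own 0-1 h level at 2-3 h, 79.5% at 4-5 h, 52.1% at 5.5-6.5 h, 30.8% at 7-7.5 h, 23.6% at 8-9 h, 12.2% at 11-13 h and 9.91% at 20 h. The 2700 other genes of at least 50 CPM at 0-1 h also came down as a share of reads, with medians of 92.6%, 86.2%, 74.7%, 63.9%, 59.7%, 49.1% and 49.3% in the same blocks. Medians of members and of other abundant genes thus lay close together to 4-5 h and drew apart from 5.5-6.5 h on. The choice bounded members, but not the others, at 4-5 h and from 11 h on, so a parting between these times is built in. The blocks from 5.5 to 9 h entered the choice only through the condition on the highest block, but they lie between the bounded ones.

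Members left the plateau at different times. The first block below 50% of the 0-1 h level was 5.5-6.5 h in 21 genes, 7-7.5 h in 23 and 8-9 h in 4. The highest block was 0-1 h in 34 genes, 2-3 h in 12 and 4-5 h in 2. From 4-5 h on, 27 of the 48 came down in every following block. Single exceptions were common: 9 genes were higher at 8-9 h than at 7-7.5 h, 9 were higher at 20 h than at 11-13 h, and 3 were higher at 5.5-6.5 h than at 4-5 h. The end level differed too, with 10 genes at or below 1/20 of the 0-1 h level at 20 h and 22 at or above 1/10.

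**Figure D2:**
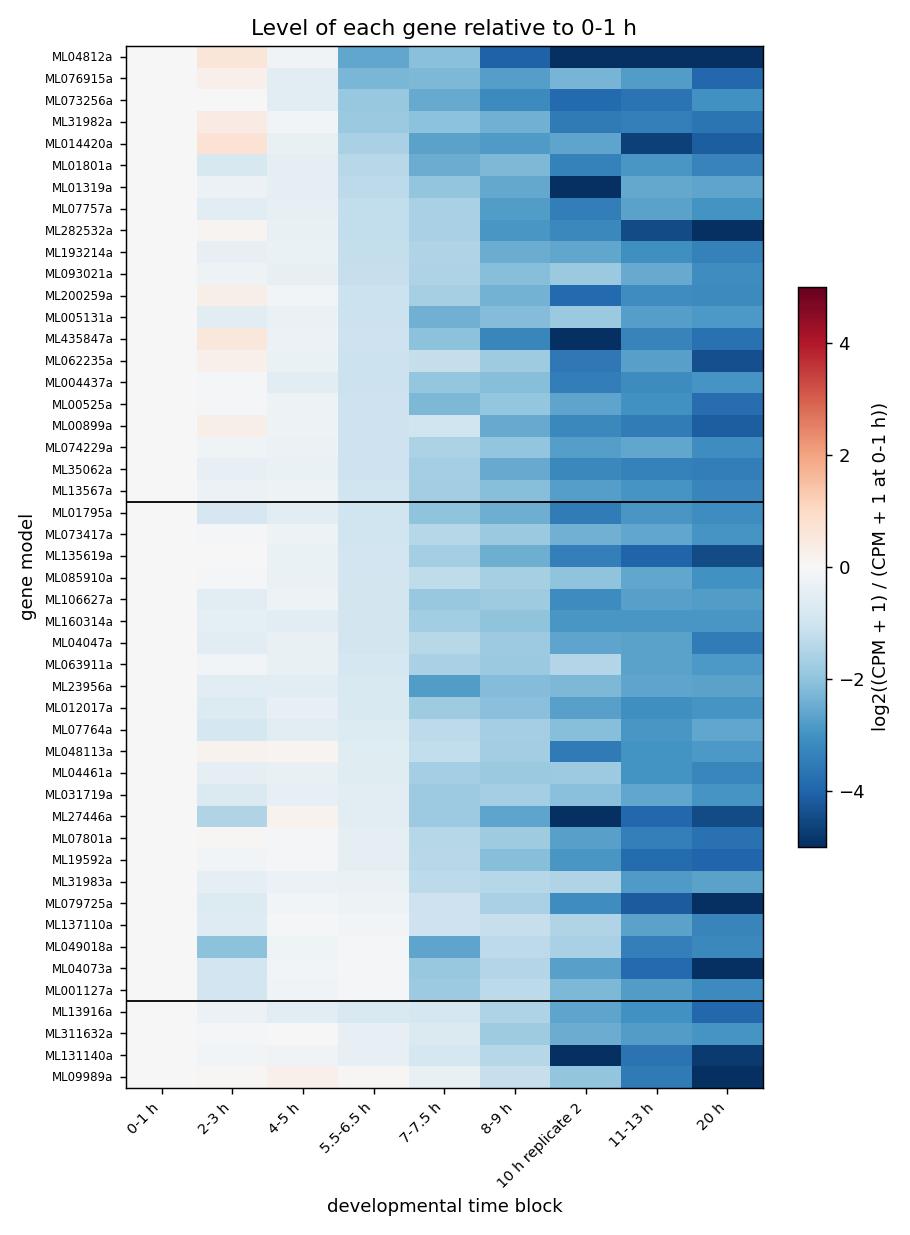
Level of each of the 48 genes relative to its level at 0-1 h, as log2 of (CPM + 1) over (CPM + 1 at 0-1 h), by block of time and in 10 h replicate 2. Black lines separate the 21, 23 and 4 genes whose first block below 50% of the 0-1 h level was 5.5-6.5, 7-7.5 and 8-9 h, and genes within a class are sorted by their 5.5-6.5 h share.

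Among the genes that left first, ML04812a was the most abundant member. Its levels in the 4 embryos of 0-1 h were 1212, 1752, 1162 and 1621 CPM, and in the 4 of 2-3 h they were 2684, 2491, 1725 and 1941 CPM. At 4 h replicates 1 and 2 had 1095 and 2767 CPM, at 4.5 h 2364 and 687 CPM, and at 5 h 686 and 181 CPM. At 5.5-6.5 h the lowest, median and highest of 6 embryos were 182, 214 and 674 CPM. The level was thus raised at 2-3 h (154% of 0-1 h in the block), spread over more than the whole 0-3 h range at 4-5 h, and down to 16.4% of the 0-1 h level at 5.5-6.5 h. By 11-13 h its 6 embryos had a lowest, median and highest level of 11.7, 15.7 and 29.2 CPM, and the 20 h embryos had 12.6 and 28.3 CPM.

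ML076915a, ML073256a and ML31982a shared this early departure. ML076915a had 169.9, 239, 211 and 172 CPM in the embryos of 0-1 h and a lowest, median and highest level of 33.0, 36.1 and 59.6 CPM at 5.5-6.5 h. ML073256a had 324, 324, 307 and 398 CPM at 0-1 h and 63.8, 94.6 and 111 CPM by the same measures at 5.5-6.5 h. ML31982a had 133, 190.4, 185 and 241 CPM at 0-1 h and 39.6, 46.6 and 72.0 CPM at 5.5-6.5 h. In all 3 genes no embryo of 5.5-6.5 h reached the lowest embryo of 0-1 h. Their blocks of 5.5-6.5 h stood at 20.2%, 27.0% and 27.0% of 0-1 h.

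The highest shares left at 5.5-6.5 h were those of ML09989a, ML001127a, ML04073a and ML049018a, at 104%, 97.3%, 96.3% and 94.9% of 0-1 h. ML001127a, ML04073a and ML049018a then stood at 28.2%, 26.6% and 15.2% at 7-7.5 h, and only ML09989a of these was still above 50%. The 4 genes whose first block below 50% was 8-9 h, with the pools summed, were ML09989a, ML131140a, ML311632a and ML13916a. From 0-1 to 7-7.5 h ML13916a went from 116.7 to 25.8 CPM in pool 6 and from 25.2 to 43.1 CPM in pool 12. Its place in this class thus rests on summing the pools. ML131140a went from 344.9 to 173.0 CPM in pool 6 and from 74.8 to 85.0 CPM in pool 12. ML09989a had 533, 485, 449.7 and 522 CPM at 0-1 h. At 5.5-6.5 h the lowest, median and highest of its 6 embryos were 429, 497 and 670.4 CPM, and at 7-7.5 h its 4 embryos had 439, 388, 292 and 399 CPM. At 8-9 h the 6 embryos had 112, 217 and 583 CPM by the same measures. The levels of 5.5-6.5 h overlapped those of 0-1 h, and all 4 embryos of 7-7.5 h lay below the lowest of 0-1 h. ML09989a was the member with the highest share left at 7-7.5 h, 78.0% of 0-1 h.

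**Figure D3:**
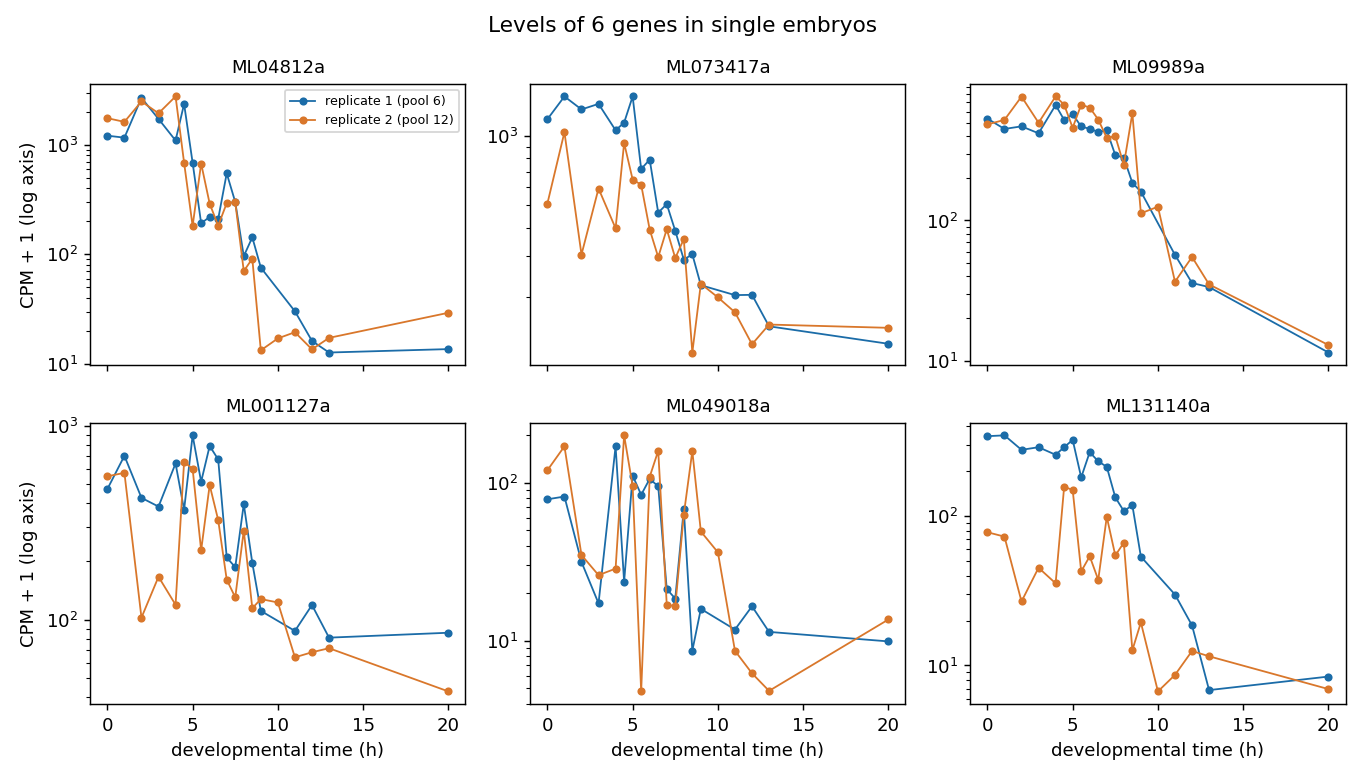
Levels of 6 members in single embryos (CPM + 1, log axes) against developmental time (h), with 1 line per library pool and 10 h replicate 1 not drawn. ML04812a came down from 4-5 h on and ML09989a from 7 h on, the 2-3 h embryos of ML049018a lay below those of 0-1 h, and ML131140a was lower in pool 12 than in pool 6 at most times.

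A dip at 2-3 h followed by a return at 4-5 h was seen in part of the set. Of the 48 genes, 11 were below 2/3 of the 0-1 h level at 2-3 h, and 2 of these, ML049018a and ML27446a, were below 50%. The share of other abundant genes with such a dip is not given here, so the dip is not read as particular to the set. Since the choice required at least 2/3 of the 0-1 h level at 4-5 h, the return is fixed by it and was not tested. ML27446a had 166, 173, 124 and 152 CPM at 0-1 h, 54.8, 70.8, 48.8 and 45.1 CPM at 2-3 h, and a lowest, median and highest level of 45.8, 181 and 272 CPM at 4-5 h. The 2-3 h embryos lay wholly below those of 0-1 h, and 5 of the 6 embryos of 4-5 h lay above the highest of 2-3 h.

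ML049018a went down and up more than once. It had 77.5, 119, 80.7 and 169 CPM at 0-1 h and 30.5, 33.8, 16.3 and 25.0 CPM at 2-3 h. At 4 h replicates 1 and 2 had 169 and 27.6 CPM, and at 4.5 h they had 22.6 and 198 CPM. All 4 embryos of 2-3 h lay below the lowest of 0-1 h, and at 4 and 4.5 h the 2 embryos of each age split between those levels, with a different pool higher at each time. In 5.5 h replicate 2 it had 3.79 CPM, which is a single read of that shallow library.

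Later the gene was low again at 7-7.5 h, with 20.2, 16.0, 17.5 and 15.5 CPM. At 8 h it had 67.1 and 61.8 CPM, at 8.5 h 7.66 and 157 CPM, and at 9 h 14.9 and 48.1 CPM. The 8-9 h embryos thus lay on both sides of the 7-7.5 h values. In ML04812a the same embryos of 4 and 4.5 h split the other way, since 4 h replicate 2 and 4.5 h replicate 1, which were low in ML049018a, were its high ones. These 2 genes were set beside each other after their values were seen.

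Over all members, embryos of 4 and 4.5 h differed in whether they resembled younger or older ones. In 4 h replicate 2, 41 of the 48 genes (85.4%) were closer to their 2-3 h level than to their 5 h level, against 76.6% of the 2700 other abundant genes. The share was 64.6% in 4.5 h replicate 1 (others 52.4%), 47.9% in 4 h replicate 1 (others 50.1%) and 41.7% in 4.5 h replicate 2 (others 41.0%). The embryo-to-embryo difference in this measure was therefore present among the other abundant genes as well.

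Embryo 5 h replicate 2 touched the 4-5 h values most. It was lower than 5 h replicate 1 in 45 of the 48 genes, and lower than each of the other 5 embryos of 4-5 h in 29 (60.4%), against 31.3% of the other abundant genes. Without it the sum at 4-5 h was 12834 CPM, or 94.1% of 0-1 h, where with it the share was 84.8%. The median member then stood at 89.5% of 0-1 h. The choice made without this embryo gives 62 genes, 47 of the 48 among them. Embryo 7 h replicate 1 stood apart in the other direction, higher than each of the other 3 embryos of 7-7.5 h in 37 genes (77.1%, against 55% of the other abundant genes).

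The 10 h embryos give levels that the choice did not use, although they lie between blocks that it did use. In 10 h replicate 2, with 1928630 gene reads, the sum was 1989 CPM, or 14.6% of the 0-1 h sum. In 10 h replicate 1 the 48 genes had 8 of 3808 reads, which is 2101 CPM with an exact 95% binomial interval of 907 to 4135 CPM. This interval covers counting error only. Both embryos thus lay between those of 8-9 h and those of 11-13 h, the second with a wide interval.

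In 10 h replicate 2 all 48 members were at or below 50% of their 0-1 h level, against 56.5% of the 2700 other abundant genes. At or below 1/6 of the 0-1 h level were 32 members (66.7%), against 7.96% of the others. The median member was at 14.4% (range 0% to 35.4%) and the median other gene at 44.8%. The choice held members, but not the others, to at most 1/6 of the 0-1 h level in the later blocks. A gap between members and others at 10 h is therefore in part built in. These contrasts describe a single embryo and are no independent test of the decline. Single genes differed: ML137110a (203 CPM), ML31983a (79.3 CPM) and ML063911a (17.6 CPM) kept 35.4%, 35.2% and 35.1%, while ML435847a had no read, ML01319a 0.519 CPM and ML27446a 1.04 CPM. For ML435847a a count of 3 reads, 1.56 CPM here, is the level that a count of 0 allows.

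Those 3 lowest genes had higher values again at 11-13 h. ML01319a had 20.1, 15.4, 6.86, 8.74, 17.8 and 14.3 CPM in the embryos of 8-9 h, and 12.1, 13.5, 18.9, 8.37, 24.0 and 8.61 CPM in those of 11-13 h. Its 10 h value thus lay below every embryo on either side. ML27446a ranged from 8.74 to 39.2 CPM at 8-9 h and from 4.39 to 14.9 CPM at 11-13 h, again above its 10 h value throughout. The 10 h values of both genes were below 3 reads (1.56 CPM) in a single embryo, so the size of these dips is not read as exact. Over the set, 25 members lay between their own 8-9 h and 11-13 h blocks in this embryo, 17 lay below both and 6 above both.

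To place the descent in time, neighbouring blocks were compared with edgeR's quasi-likelihood test on all 9576 genes with enough counts, all 48 members among them. A gene was called at a Benjamini-Hochberg adjusted p below 0.05 and a log2 fold change of at least 1 in size. The steps lie between a high start and a low end that the choice fixed, so a lower level at some step is built in, and only its place and size are not fixed. The other genes carry no such condition, so more falls among members than in the background are in part built in over the steps together. From 5.5-6.5 to 7-7.5 h, 5 members (10.4%) fell, against a background of 1.17% of all genes tested and 2.48% of the other abundant genes. In the other direction 0 members rose, against 2.25% of all genes and 0.444% of the other abundant genes, and 43 had a negative log2 fold change. The median log2 fold change was -0.66 over members (range -2.32 to 0.37), -0.11 over the other abundant genes and 0.09 over all genes.

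ML23956a had the lowest p at this step. Its 6 embryos of 5.5-6.5 h had a lowest, median and highest level of 40.0, 118 and 151 CPM, and those of 7-7.5 h had 34.7, 21.5, 41.5 and 24.6 CPM. The groups overlapped only through 6.5 h replicate 2, with 40.0 CPM. It fell by 1.79 ± 0.38 (SE) on the log2 scale (edgeR adjusted p = 0.0113). The call was lost without 7 h replicate 2 or 7.5 h replicate 2.

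ML04073a had 64.8, 127 and 182 CPM as lowest, median and highest at 5.5-6.5 h and 58.5, 30.8, 27.7 and 16.1 CPM at 7-7.5 h, with no overlap. It fell by 2.00 ± 0.48 (edgeR adjusted p = 0.0216). ML031719a had 121, 160.2 and 194 CPM and then 91.0, 62.3, 57.6 and 71.8 CPM, again with no overlap, and fell by 1.12 ± 0.29 (edgeR adjusted p = 0.0298). ML001127a had 227, 505 and 789 CPM and then 209, 160.0, 186 and 129.6 CPM, with no overlap, and fell by 1.49 ± 0.39 (edgeR adjusted p = 0.0298). ML27446a fell by 1.38 ± 0.36 (edgeR adjusted p = 0.0314). These 4 calls too were lost without 7 h replicate 2 or 7.5 h replicate 2, and all 4 also when replicate 1 of 5.5 or 7.5 h or replicate 2 of 6 h was omitted. Without 6.5 h replicate 2 the calls of ML04073a, ML031719a and ML27446a were lost, and without 7 h replicate 1 those of ML031719a, ML001127a and ML27446a. ML001127a lost its call also without replicate 1 of 6 h or of 6.5 h, ML27446a without 5.5 h replicate 2, and ML031719a with no filter on low counts.

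In ML04073a and ML001127a the later levels were not uniformly lower: at 8-9 h ML04073a ranged from 21.3 to 88.0 CPM and ML001127a from 110.1 to 395 CPM. The 8 h embryos of ML001127a, with 395 and 288 CPM, both lay above all 4 embryos of 7-7.5 h. ML049018a had the largest negative log2 fold change at this step, -2.32 ± 0.68, and was not called (edgeR adjusted p = 0.0533).

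How many genes were called at this step depended on single embryos. Leaving out either replicate 2 of 7 h or that of 7.5 h gave 0. The omission of any of 5.5 h replicate 1, 6 h replicate 2 and 7.5 h replicate 1 gave 1, and that of 6.5 h replicate 2 or 7 h replicate 1 gave 2. With each of the 2 pools on its own, 38 of the 48 genes (79.2%) had a lower block at 7-7.5 h than at 5.5-6.5 h in both. The share was 42.1% of the 2700 other abundant genes. Both pools entered the choice, which fixed a high start and a low end for members only, so this excess too is in part built in. A test against the fold threshold itself, in place of a fold limit on the calls, called 0.

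From 7-7.5 to 8-9 h, 4 members (8.33%) fell, against a background of 0.282% of all genes and 0.333% of the other abundant genes. The median log2 fold change was -0.67 over members (range -2.28 to 1.56), -0.16 over the other abundant genes and 0.02 over all genes, and 40 members had a negative value. Again 0 members rose, against 0.835% of all genes and 0.111% of the other abundant genes. ML282532a had 88.8, 73.8, 61.9 and 56.8 CPM at 7-7.5 h and 27.6, 34.0, 31.1, 11.7, 24.9 and 10.2 CPM at 8-9 h. These groups did not overlap, and the gene fell by 1.59 ± 0.29 on the log2 scale (edgeR adjusted p = 0.0068).

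The most abundant member, ML04812a, had 548, 293, 299.5 and 298 CPM at 7-7.5 h. At 8-9 h it had 95.3, 69.3, 142, 90.3, 74.6 and 12.3 CPM, with no overlap. It fell by 2.28 ± 0.43 (edgeR adjusted p = 0.00949). Its log2 fold change at the step before, from 5.5-6.5 to 7-7.5 h, was 0.37 ± 0.42. Its course therefore held an early descent by 5.5-6.5 h, no lower level at 7-7.5 h and a further descent by 8-9 h.

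ML00899a had 165, 62.7, 61.2 and 55.2 CPM at 7-7.5 h and 14.4, 20.9, 46.4, 11.7, 32.7 and 2.05 CPM at 8-9 h, without overlap. It fell by 1.91 ± 0.41 (edgeR adjusted p = 0.0268). ML19592a had 248, 135, 141 and 122 CPM and then 107, 107, 96.4, 122, 37.0 and 47.1 CPM, so that its highest 8-9 h embryo came level with its lowest 7-7.5 h embryo, and fell by 1.04 ± 0.25 (edgeR adjusted p = 0.0442). The only members with a log2 fold change above 0.5 at this step were ML049018a (1.56 ± 0.67, edgeR adjusted p = 0.243) and ML04073a (0.62 ± 0.47, edgeR adjusted p = 0.556), and neither passed the test.

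Embryo 7 h replicate 1 bore on this step. Without it 0 members were called, and the log2 fold changes of ML282532a and ML04812a were -1.56 and -2.07. It was 2 when either 7.5 h embryo, 8 h replicate 1 or the replicate 2 of 8.5 or 9 h was omitted, and 7 without 8.5 h replicate 1. ML00899a and ML19592a lost their calls in each of these omissions but that of 8.5 h replicate 1, and also without the 4 shallowest libraries. ML19592a further lost its call without replicate 2 of 1 or 8 h, without replicate 1 of 9, 11 or 13 h, with no filter on low counts, with a factor for blocks in place of times, with median-of-ratios size factors and in DESeq2. The test against the fold threshold called 0.

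**Figure D4:**
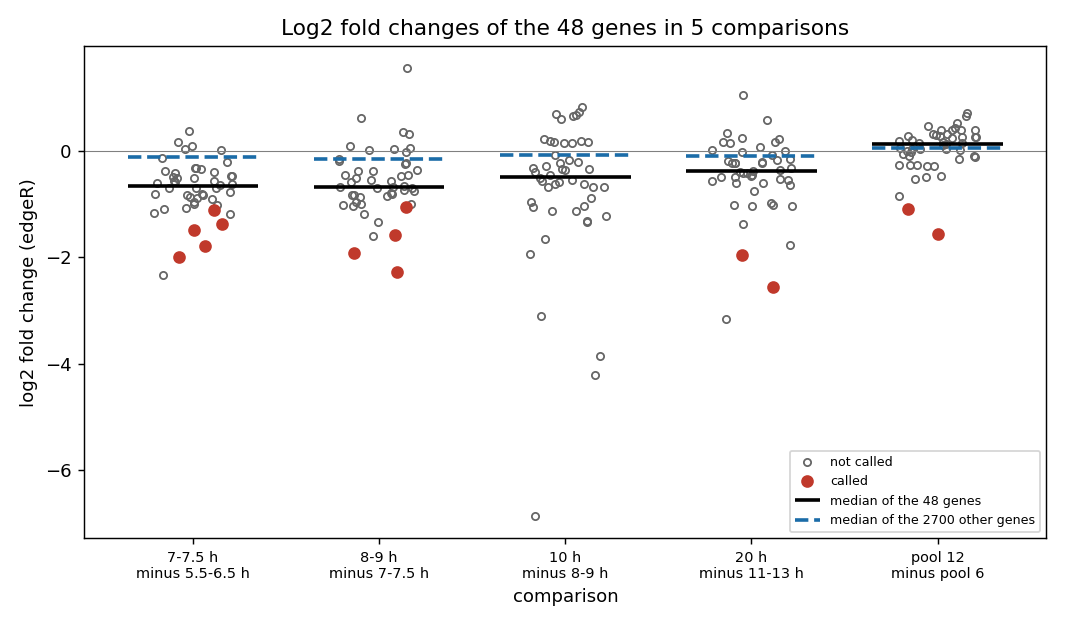
Log2 fold changes (edgeR) of the 48 genes in 5 comparisons, with called genes as filled red points, the median of the 48 as a black line and the median of the 2700 other abundant genes as a dashed blue line. The members' median was -0.66 at 7-7.5 h, -0.67 at 8-9 h, -0.48 at 10 h and -0.38 at 20 h, each against the block before, and 0.13 between pools.

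From 8-9 to 10 h, where a single 10 h embryo entered the test, no member was called. Neither was any other gene called lower, so the background was 0% of all genes, while 0.0731% of all genes and 0% of the other abundant genes rose, and DESeq2 called no member either. The log2 fold change was negative in 35 members, and its median was -0.48 over members against -0.07 in the other abundant genes. The share of other genes with a negative value is not given here, so the count of 35 is not read as particular to the set. ML27446a and ML01319a had the lowest p, with log2 fold changes of -3.85 ± 0.95 and -4.22 ± 1.08. Both rest on fewer than 3 reads in the 10 h embryo and are not read as exact.

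From 11-13 to 20 h, 2 members (4.17%) met the same call as lower, against a background of 0.324% of all genes and 0.593% of the other abundant genes. In the other direction 0 did, against 1.48% of all genes and 0.444% of the other abundant genes. Both blocks entered the choice of members, so nothing is read from these counts, and the 2 genes behind them, ML09989a and ML079725a, are described by their values with no test. ML09989a had 55.8, 35.5, 34.8, 53.9, 32.5 and 34.0 CPM at 11-13 h and 10.4 and 11.9 CPM at 20 h. ML079725a had 60.3, 25.2, 17.6, 49.7, 24.7 and 25.8 CPM and then 3.72 and 8.18 CPM. Neither gene's groups overlapped. The count of 2 was 0 when either 20 h embryo was left out.

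Low levels were still measured at 20 h. All but 1 of the members had at least 3 reads over the 2 embryos of 20 h, and 47 had a read in both. The exception was ML04073a, with 0.743 and 0.744 CPM, a single read in each, after a lowest, median and highest level of 3.35, 7.20 and 9.94 CPM at 11-13 h. Its 20 h block over its 11-13 h block is thus a ratio of 2 reads and is not read further. At the other end ML073417a still had 124 and 146 CPM at 20 h, 12.9% of its 0-1 h level. Its 11-13 h embryos had a lowest, median and highest level of 123, 161 and 203 CPM.

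Because the choice used the same values that describe the decline, it was also made in part of the embryos and the decline compared in the rest. The same conditions were applied within 1 library pool, and the genes so chosen were tested in the other pool for the mean of 11-13 and 20 h against the mean of 0-1, 2-3 and 4-5 h, with neighbouring times as replicates. In pool 6 alone 51 genes met the conditions. In pool 12, 49 of these 51 were called lower (edgeR, same call), against a background of 13.8% of all genes and 32.5% of the other genes of at least 50 CPM at 0-1 h in pool 6. All 51 had a negative log2 fold change, with a median of -2.98 (range -7.02 to -1.53), where the median over all genes was 0.47. The other 2 were ML13916a and ML435847a, at -1.64 ± 0.79 and -1.57 ± 0.66.

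In the other direction 50 genes met the conditions in pool 12, and 49 of them were called lower in pool 6, against 17.6% of all genes and 40.3% of the other abundant genes. All 50 were negative, with a median of -2.51 (range -5.24 to -0.86), and the median over all genes was 0.27. The exception was ML141732a, at -0.86 ± 0.33. In both directions the late decline was thus called in the pool that had not been used to list the genes. The conditions and the test were chosen with earlier results of these data known. The test also compares early with late times, as the conditions do. The lists tested are not the full set. The calls therefore describe these lists in the other pool and are no independent test of the full set's decline. Embryos of the pools share their ages and, as far as the labels say, may share a spawning.

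**Figure D5:**
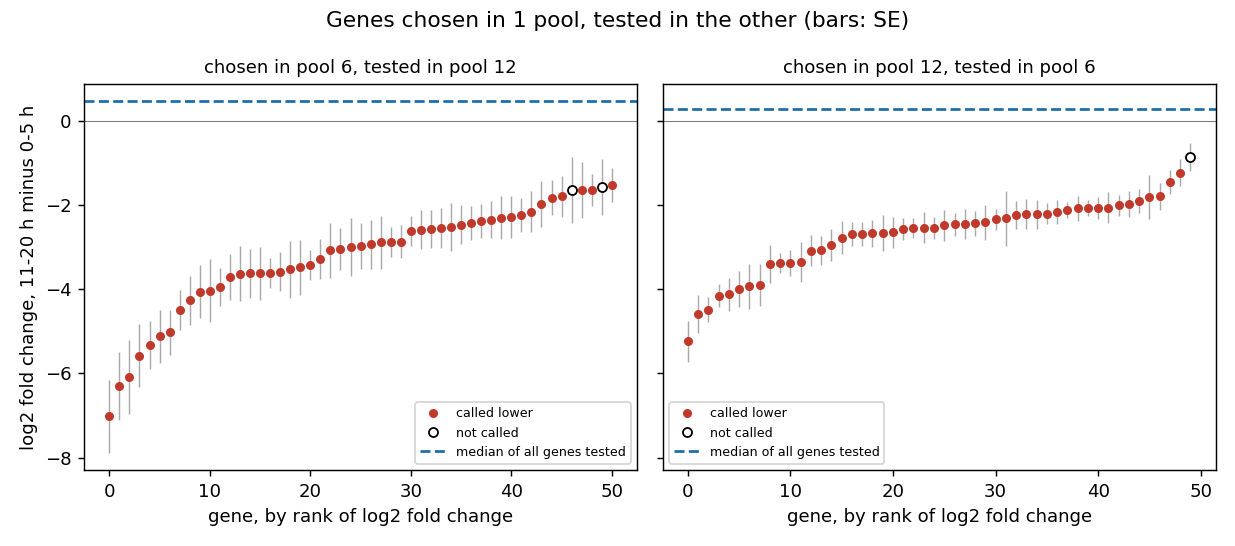
Log2 fold changes (edgeR, 11-20 h minus 0-5 h) with SE of the 51 genes chosen in pool 6 and tested in pool 12 (left) and of the 50 chosen in pool 12 and tested in pool 6 (right), by rank. Filled points were called lower (49 in each panel), open points were not, and the dashed line is the median of all genes tested (0.47 and 0.27).

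The strongest declines in the held-out pool were those of ML04811a and ML014420a in pool 12 and of ML079725a and ML131140a in pool 6. ML04811a fell by 7.02 ± 0.86 on the log2 scale (edgeR adjusted p = 1.16e-06). It is not one of the 48, because its 4-5 h level over both pools was 61.6% of 0-1 h, with 90.5% in pool 6 and 45.2% in pool 12. Its block levels were 649, 632, 400.2, 94.1, 91.1, 25.7, 4.54 and 2.23 CPM, a course that runs down from 5.5-6.5 h on. ML014420a fell by 6.31 ± 0.80 in pool 12, where its 3 embryos of 11-13 h had no read and that of 20 h had 7.44 CPM. With no read in those 3 embryos the size of this fall is limited by depth and is not read as exact.

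In pool 6 ML079725a fell by 5.24 ± 0.48 (edgeR adjusted p = 8.44e-08), and in pool 12 it fell by 5.03 ± 0.54 (edgeR adjusted p = 2.05e-07). ML131140a fell by 4.60 ± 0.45 in pool 6 (edgeR adjusted p = 1.87e-07) and fell by 2.89 ± 0.63 in pool 12 (edgeR adjusted p = 0.00074). ML079725a and ML131140a were each chosen in both pools.

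The make-up of the list depended on the embryos used, while its direction was fixed by the conditions. Of the 48 genes, 31 met the conditions in pool 6 alone, 29 in pool 12 alone, 19 in both and 7 in neither. The 19 were also all the genes shared by the pools' own lists, 37.3% of the pool 6 list and 38% of the pool 12 list. The late limits were met by 36 members in pool 6 and 41 in pool 12, and the 4-5 h limits by 45 and 37. Leaving out 1 embryo at a time gave lists of 41 to 62 genes, and 20 of the 48 stayed in all 38 of them. With CPM scaled by TMM, a scaling that centres most genes between libraries, 34 genes met the conditions, 26 of them among the 48.

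The timing of the departure also varied between the pools. The last time at which a gene was at or above 50% of its 0-1 h level in the same pool had a median of 6.5 h in each pool, with a range of 4.5 to 8.5 h in pool 6 and 4 to 9 h in pool 12. This time was the same in both pools for 5 genes, within 1 h for 30 and more than 2 h apart for 8.

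Levels themselves differed between pools in a few members. With time in the model, 2 members (4.17%) were lower in pool 12, against a background of 4.78% of all genes and 6.26% of the other abundant genes, a share close to the background. None was higher in pool 12, where 0.157% of all genes and 0.111% of the other abundant genes were. Members were split in sign, with 18 below and 30 above 0 and a median of 0.13. ML131140a had 342 and 347 CPM in the 0-1 h embryos of pool 6 and 77.1 and 71.9 CPM in those of pool 12. It was lower in pool 12 at 18 of 19 times, by 1.56 ± 0.22 on the log2 scale (edgeR adjusted p = 1.87e-05), and both pools came down to a few CPM, 7.43 and 5.95 at 20 h.

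ML13916a had 124 and 112 CPM in pool 6 and 9.48 and 45.6 CPM in pool 12 at 0-1 h. It was lower in pool 12 at 14 of 19 times, by 1.08 ± 0.34 (edgeR adjusted p = 0.0266). This call was lost when either embryo of 0, 2, 3, 4, 6 or 6.5 h was left out, and without the 4 shallowest libraries. In pool 12 its blocks went from 25.2 CPM at 0-1 h to 43.1 at 7-7.5 h and 5.21 at 20 h, so that its plateau and descent come mainly from pool 6, where the same blocks had 116.7, 25.8 and 2.23 CPM. ML435847a had 82.9 and 148 CPM in pool 6 and 43.7 and 42.9 CPM in pool 12 at 0-1 h. At 2-3 h its block level was 192.1 CPM in pool 6 and 13.1 CPM in pool 12. This pool difference was not called (log2 fold change -0.85 ± 0.35, edgeR adjusted p = 0.117).

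Embryos of one age differed by more than 2-fold in 3 to 25 of the 48 genes, depending on the age. The highest counts were 25 genes at 8.5 h (52.1%, against 41.1% of the other abundant genes), where replicate 2 is a shallow library, and 20 at 5 h (41.7%, against 15.9%). The lowest was 3 genes at 8 h (6.25%, against 5.52%).

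The remaining members of high early level ran the same course. ML135619a had 839, 1024, 816 and 979 CPM at 0-1 h, a lowest, median and highest level of 119, 167 and 229 CPM at 8-9 h, and 29.7 and 50.6 CPM at 20 h. ML07801a had 888, 687, 889.6 and 938 CPM at 0-1 h, 180.1, 247 and 379 CPM at 8-9 h, and 67.6 and 58.8 CPM at 20 h. ML137110a had 586, 576, 567 and 564 CPM at 0-1 h, 72.8, 234 and 373 CPM at 8-9 h, and 55.0 and 59.5 CPM at 20 h. In each of these genes no embryo of 8-9 h reached the lowest of 0-1 h, and both 20 h embryos lay below every embryo of 8-9 h.

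The remaining members had between 50.3 CPM (ML063911a) and 445 CPM (ML062235a) at 0-1 h. ML31982a and ML31983a, which follow each other in the count table, differed in course: at 5.5-6.5 h they stood at 27.0% and 79.9% of their 0-1 h levels of 189 and 225 CPM. ML31983a had 154, 254, 113, 222, 153 and 263 CPM at 5.5-6.5 h, on both sides of its 0-1 h values of 169, 288, 181 and 253 CPM. Adjacent rows were not read as neighbours in the genome, since the table holds no coordinates.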

How the data were processed

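The authors deposited whole-number read counts, one value for each gene model in each embryo. CASAVA 1.8, Bowtie2 2.1.0 and HTSeq 0.5.4p3 were used, per the submitters' processing notes. Genome build, annotation, strand setting and merging of reads by molecular identifier: not given in the sources used here. Counts are therefore treated as reads, and gene models with near-identical or overlapping copies are uncertain. The authors' deposited sheet of samples holds other values (age, lanes, index number). Rows of totals (5) were left out, and reads outside gene models came to a median of 33.0% of aligned reads.

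CPM values use total gene counts. Tests used edgeR 4.0.16 in R 4.3.3 on 39 embryos (without 10 h replicate 1), with TMM scaling, filterByExpr (count minimum 10, 9576 genes left), a 20-level factor for time, contrasts between means of time coefficients and Benjamini-Hochberg adjustment over all genes. Standard errors are approximate. The procedure was tested on simulated data. The members, gene lists and tests were chosen with earlier results of these data known. Named genes have the highest 0-1 h level, extreme shares at 2-3, 5.5-6.5, 8-9 or 10 h, the lowest p of a comparison, the largest held-out declines or the values nearest the late limit. ML27446a as a called gene, ML19592a, ML141732a, ML311632a and ML062235a were named after their values were seen.

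Alternatives were TMM-scaled or averaged CPM, other limits, single pools, omitted embryos, no count filter, DESeq2 1.42.0, blocks in place of single times, library pool as a replicate block, and glmTreat, edgeR's test against a fold threshold. The sample sheet's index numbers pair same-age embryos by pool. Between 171 pairs of times, the pools' same-age differences correlated with a median r of 0.10 over 9769 genes, and 86 were over 0.1.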

Additional observations from a re-analysis of the deposited data

Results flagged for a closer look

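A single embryo stood apart from the rest of its block in 13 of 189 groups of 4 to 6 embryos examined, by a gap that takes most of the group's range. The gap limit is meant to flag 1 in 20 groups, or 9.45. That rate assumes unrelated groups of like embryos, whereas these groups join ages and share embryos, so no excess is read from it. Of the 13, 12 stood high and 1 low, and 4 of them fell in 7 h replicate 1, 3 came from 8.5 h replicate 2 and 2 from 2 h replicate 2.

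For the sum over the 48 genes, 5 h replicate 2 was low at 7848 CPM, with the next embryo of 4-5 h at 12521, and 7 h replicate 1 was high at 6453 CPM, with the next of 7-7.5 h at 4491. In 7 h replicate 1, ML00899a had 165 CPM (next 62.7), ML04812a 548 CPM (next 299.5) and ML137110a 369.7 CPM (next 271). In 2 h replicate 2, ML076915a had 377 CPM (next 229) and ML07801a 1214 CPM (next 847). In 8.5 h replicate 2, a library of 343202 gene reads, ML09989a had 583 CPM (next 279.5), ML31982a 78.7 CPM (next 36.0) and ML435847a 26.2 CPM (next 10.1). Single cases were ML014420a with 139 CPM in 4.5 h replicate 1 (next 65.2), ML076915a with 59.6 CPM in 6 h replicate 2 (next 37.9) and ML04812a with 674 CPM in 5.5 h replicate 2 (next 289), a library of 264033 gene reads.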

How the results depend on the processing

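The number of genes meeting the conditions was 168 with a late limit of 1/4, 16 with 1/10, and 41 to 62 with 1 embryo left out. Of the members called at each step, glmTreat left 0 at 7-7.5 h, 0 at 8-9 h, 0 at 20 h and 0 between pools. With no filter on low counts, 2 were called lower at 10 h and 4 at 20 h. Without the 4 shallowest libraries 1 was called at 10 h, 2 at 8-9 h and 1 between pools. With 1 embryo left out the called members numbered 0 to 6 at 7-7.5 h, 0 to 7 at 8-9 h, 0 at 10 h in all 38 fits, 0 to 2 at 20 h and 1 to 2 between pools, the lower count there without either embryo of 0, 2, 3, 4, 6 or 6.5 h. The step to 10 h has no value without 10 h replicate 2. Of the genes chosen in pool 6, 48 to 51 were called lower in pool 12, and of those chosen in pool 12, 49 to 50 in pool 6. With library pool as a replicate block, 6 members were called at 7-7.5 h, 4 at 8-9 h, 0 at 10 h and 2 at 20 h, and no call of a member was lost. A further count took 10 results, those of the called genes with the lowest p at each step and between pools. It leaves out ML19592a, ML001127a and ML27446a, whose calls were lost in the settings given above. Of its 476 alternatives 424 kept the call, 52 lost it with the same sign and 0 reversed. The cause of these changes was not tested. Where 10 h or 20 h is left with 1 embryo, that embryo is assumed to vary like the others. Levels near 3 reads are limited by depth.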
